A study of Danio rerio with 6 samples.

Results

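The cytosolic ribosomal protein genes of zebrafish were described in trimmed mid-sections of dgat2 mutants and their wild-type siblings. Members were taken by name, as every row of the count table whose symbol starts with rpl, rps or rplp followed by a number, leaving out the rps6k kinases. This gave 81 of 32520 genes, of which 43 belong to the large subunit, 4 to the stalk of the large subunit and 34 to the small subunit. The rule takes no account of any measured value. All 81 were found by name or synonym in a RefSeq gene table of the assembly GRCz12tu, where they lie on 25 chromosomes, and 1 of them, rps25, lies on chromosome 10 with dgat2.

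The embryos, 3 days post fertilization (dpf), came from parents that each carried 1 copy of dgat2sa13945, and the opacity of the yolk served to sort them. Their heads and tails were then kept for genotyping. The mutant group was homozygous for dgat2sa13945, a nonsense allele from a chemical (ENU) mutagenesis screen, so that these fish may carry other mutations of that screen, and it was taken from embryos with opaque yolks. The control group was their wild-type siblings. The paper proposes that dgat2sa13945 may not be a true null. Each of 3 clutches, numbered 2, 3 and 4, gave 1 pool of 6 mutant and 1 pool of 6 wild-type mid-sections, which leaves 3 pools per genotype and 6 libraries in all. Heads and tails had been cut off, and each mid-section held the yolk sac with its yolk syncytial layer (YSL) together with the dorsal musculature, so a value describes this mixture.

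The cytosolic ribosome is built from a large and a small subunit, each made of ribosomal RNA and one copy of most of its proteins, while the acidic P proteins form a stalk that recruits elongation factors. Because the proteins are needed in fixed proportions, their genes are expressed together and at high levels in nearly all cells, and in vertebrates their mRNAs start with an oligopyrimidine tract through which growth signals control their translation. At 3 dpf growth still draws on the yolk, and the YSL is the tissue that makes and secretes its lipoproteins.

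One member, rps18, was also the gene to which quantitative PCR in the study was normalized. It encodes a protein of the head of the small subunit, and not the 18S ribosomal RNA by which the assay is also called. Its primers are shown, 5′ to 3′, because they mark which transcript served as the standard for the other genes.
forward: tgcagaaccctcgccagtacaaaatcccag
reverse: ccagaagtgacggagaccacggtgagccct

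The libraries held between 52476194 and 59166585 estimated counts in mutants and between 45958694 and 49918655 in wild-type siblings, so every mutant library was deeper. The dgat2 transcript was present in both genotypes, with 1149, 514 and 1270 counts in the mutant pools (in the order of clutches 2, 3 and 4) and 1328, 783 and 209 counts in the wild-type pools, and so does not serve as a check of the labels. Markers of the labelled tissues were present. The 18 skeletal muscle genes summed to between 159064 and 175120 counts scaled to a library of 1000000 (counts per 1000000, CPM) in mutants and between 164798 and 187309 CPM in wild-type siblings, and the 13 YSL and hepatocyte genes to between 12497 and 15358 CPM in mutants and between 9675 and 18287 CPM in wild-type siblings.

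The first question was how much of each library these genes take. Ribosomal protein genes took 7.15%, 6.49% and 6.38% of the counts in mutants of clutches 2, 3 and 4, against 6.56%, 6.27% and 6.66% in wild-type siblings. The mutant pool of clutch 2 was the highest of all 6, and the other 5 lay between 6.27% and 6.66%, so that the groups overlapped. The means were 6.67% ± 0.416 in mutants, against 6.50% ± 0.202 in wild-type siblings (SD, n = 3 each), a difference of 0.176 percentage points that was smaller than the SD of either genotype. As a log2 ratio of mean shares (mutant over wild-type) this was 0.04, and its direction turned without the mutant pool of clutch 2 (-0.01) and for the share of TPM (-0.01). Wilson 95% intervals of these shares reached at most 0.00716 percentage points to either side, which covers counting error only and is far below the spread between pools. In bulk tissue a smaller share of cells and less RNA per cell cannot be told apart, and this holds for every level given here.

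Large subunit genes took 3.62% ± 0.206 of the counts in mutants, against 3.51% ± 0.0927 in wild-type siblings. Small subunit genes took 2.63% ± 0.162 in mutants, against 2.58% ± 0.105 in wild-type siblings. The 4 stalk genes took 0.420% ± 0.0494 in mutants, against 0.409% ± 0.0192 in wild-type siblings (SD, n = 3 each). In each class the difference between genotypes was smaller than the SD among mutant pools. For the large subunit genes, at 0.110 percentage points, it was above the SD among wild-type pools. For the small subunit and stalk genes it was below that SD as well.

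TPM values, scaled to a sum of 1000000 per library, divide each count by the transcript length before scaling, and so weight short genes more. On this scale the same genes took 15.1%, 12.9% and 13.7% of each mutant library and 15.002%, 13.1% and 14.0% of each wild-type library. Clutch 2 was then the highest and clutch 3 the lowest in both genotypes.

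**Figure D1:**
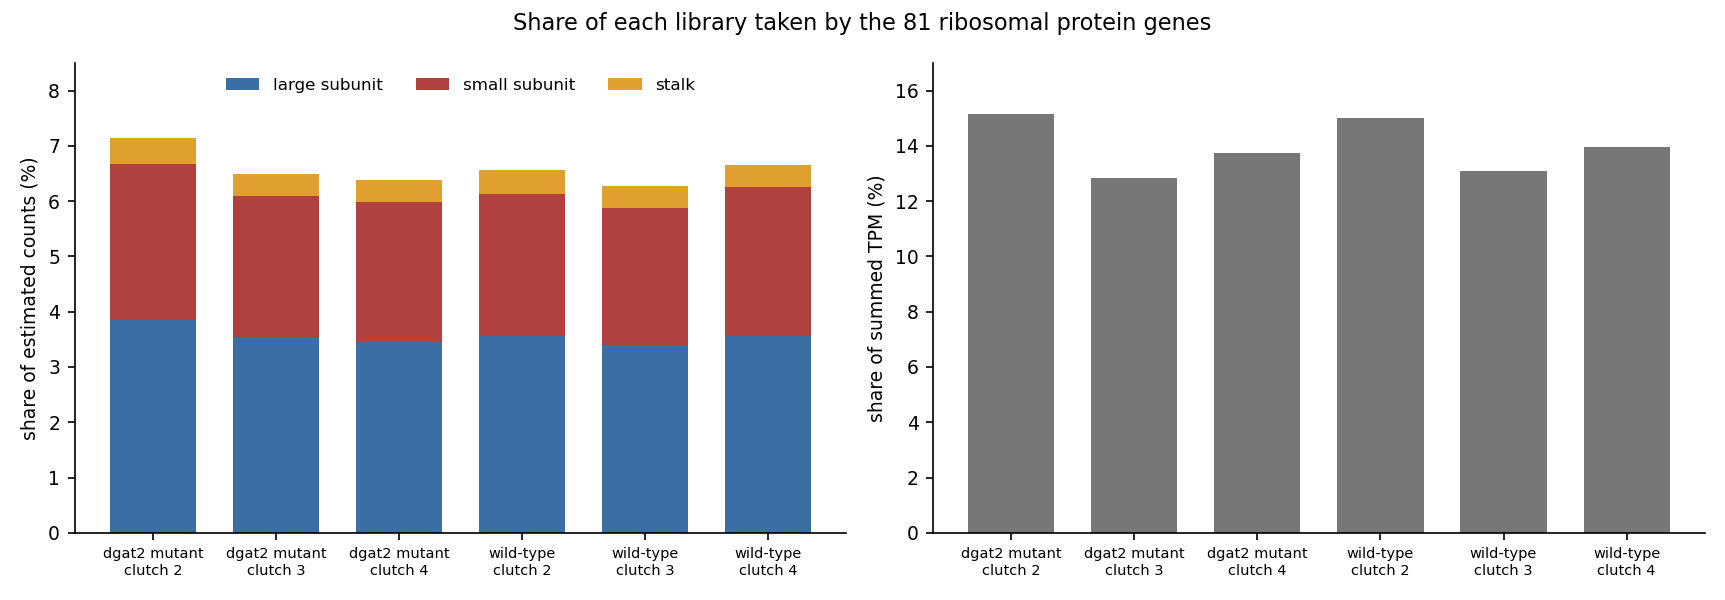
Share of each library taken by the 81 cytosolic ribosomal protein genes, as a percent of estimated counts (left, stacked by large subunit, small subunit and stalk) and of summed TPM (right), with 1 bar per pool. By counts the mutant pool of clutch 2 stood highest at 7.15% and the other 5 pools lay between 6.27% and 6.66%, whereas by TPM the 2 pools of clutch 2 stood highest.

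Levels differed less between most of these genes than the whole range implies. Averaged over the 6 libraries, the median gene was at 1544 TPM, 62 of 81 lay between 1000 and 3000 TPM, and 44 of 81 were among the 100 genes with the highest TPM of the whole table (73 of 81 among the highest 200). The 5 highest were rps20 (8006 TPM), a protein of the head of the small subunit, rps10 (6014 TPM), which in mammals lies near the mRNA entry, rps29 (4896 TPM), a small zinc-binding protein, rpl39 (4490 TPM), a very short protein of the wall of the exit tunnel, and rpl32 (3311 TPM) of the large subunit. Together the 5 held 19.1% of the TPM of all 81. In the order of levels, neighbours were not always separated: rps20 had 9451, 7756 and 6974 TPM in mutants and 6397, 9013 and 8448 TPM in wild-type siblings, while rps10 had 6485, 5955 and 5989 TPM in mutants and 6096, 5821 and 5739 TPM in wild-type siblings, so that the lowest rps20 library was below the highest rps10 library.

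The 5 lowest by TPM fell into different kinds. The 3 lowest are copies or relatives of a more abundant member, namely rps8b (4.997 TPM), rps27l (68.0 TPM) and rpl7l1 (78.4 TPM). The next were rpl35a (167 TPM), a large subunit protein, and rps3 (196 TPM), a protein of the mRNA entry channel. For these 2 the low TPM went with a large length term. The ratio of estimated count to TPM, relative to the median of the members in a library, was 7.41 for rps3 and 6.71 for rpl35a, against 0.217 for rps10, 0.219 for rps29 and 0.278 for rps20. In CPM, which ignores length, rps20 was 1.504-fold above rps3, whereas in TPM it was 40.8-fold above it.

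That length term was stable between libraries for 78 of 81 genes, whose ratio varied less than 1.2-fold. It varied 2.93-fold for rpl39, 1.71-fold for rps20 and just over 1.2-fold for rps16. By counts rpl39 had 871, 820 and 732 CPM in mutants of clutches 2, 3 and 4, against 682, 787 and 950 CPM in wild-type siblings, and its means of 808 ± 70.5 CPM and 806 ± 135 CPM (SD, n = 3 each) were close. By TPM it had 3461, 3146 and 3091 TPM in mutants, against 8590, 3184 and 5470 TPM in wild-type siblings, so that all mutants lay near the lowest wild-type pool. With the length term as an offset, DESeq2 gave rpl39 a log2 fold change of -0.78 (SE 0.26, unadjusted p = 0.00241, adjusted p = 0.190), whereas edgeR on counts alone gave 0.00 (SE 0.14, adjusted p = 0.9999). The difference in rpl39 by TPM thus lay in the ratio of count to TPM, while its counts had close means.

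**Figure D2:**
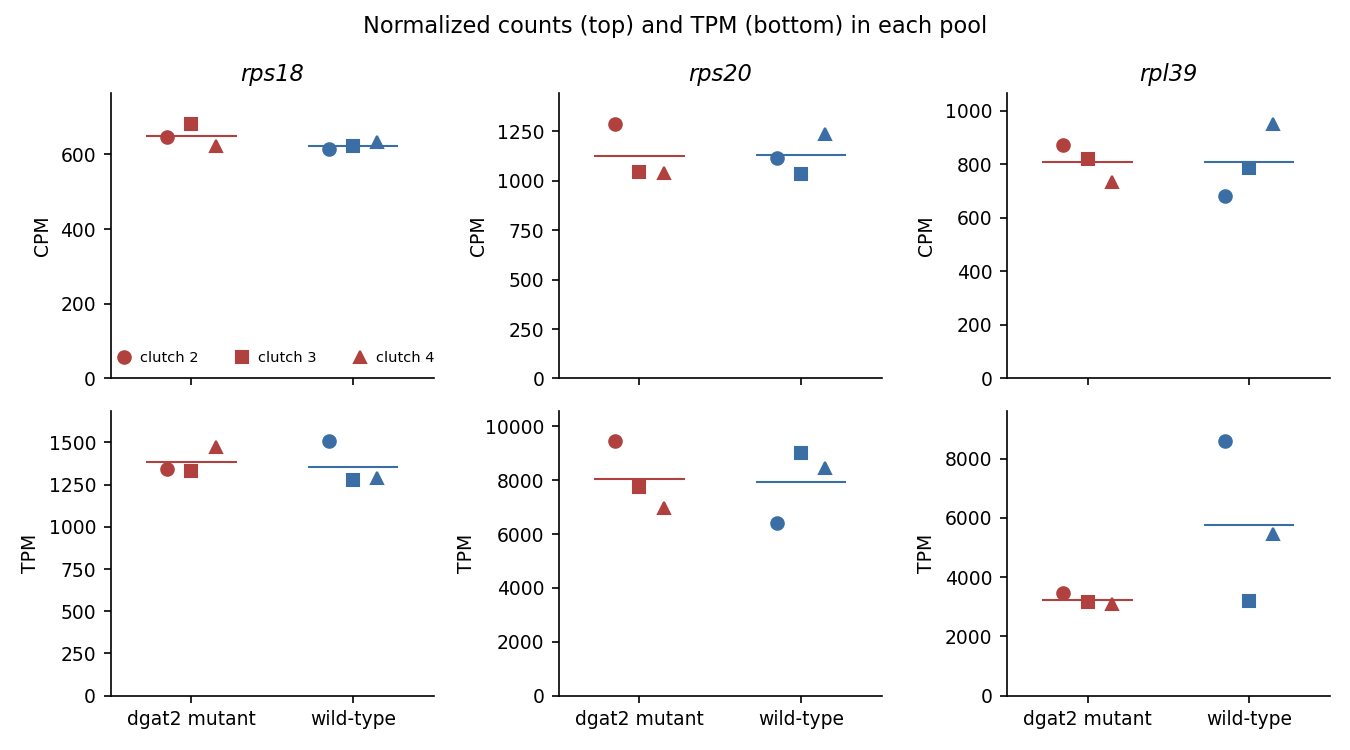
CPM (top) and TPM (bottom) of rps18, rps20 and rpl39 in each pool, mutants to the left of wild-type siblings, with the clutch shown by the symbol and the mean of each genotype by a line. By CPM the genotype means of rpl39 were 808 in mutants and 806 in wild-type siblings, whereas by TPM the wild-type pools reached 5470 and 8590 against at most 3461 in mutants.

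The chief comparison asked which of these genes differed between mutants and wild-type siblings. No ribosomal protein gene passed an adjusted p of 0.05 in the quasi-likelihood test of edgeR, with p-values adjusted after Benjamini-Hochberg over the 22762 genes tested, of which 0.0132% were called (3 genes, all higher in mutants). None reached an unadjusted p of 0.05 either, where 5.2% of all genes did. All 81 passed the filter on low counts. The smallest adjusted p among them was 0.9999.

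Other tools called no member either. DESeq2 called 0 of 81 where 0.669% of all genes were called, DESeq2 with length offsets 0 of 81 against 0.719%, and limma on log2(TPM + 1) 0 of 81 against 0.0334%. With the clutch as a replicate block, edgeR called 0 of 81 against 0.338% of all genes and DESeq2 0 of 81 against 1.59%. At an unadjusted p of 0.05 the blocked edgeR fit passed 1 member, rps27l, where 8.19% of all genes passed. In none of the 81 were the 3 mutant pools separate from the 3 wild-type pools, where 9.98% of all genes had such a gap.

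The estimates were small. The median log2 fold change of the 81 genes (mutant over wild-type) was 0.02, beside -0.01 over all genes tested. Of the 81, 65 were above 0 and 16 below, where 10971 of all 22762 genes tested were above 0. Within 0.1 of 0 were 74 of 81. Every 95% interval of the fit without the clutch block included 0. Of these, 79 of 81 lay wholly within 0.5 of 0 on the log2 scale, which bounds the difference that fit leaves room for. The exceptions were rps27l and rps8b. The median was 0.02 over the large subunit, 0.04 over the stalk and 0.02 over the small subunit.

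The 5 genes above 0 with the smallest p were rps27l, rpl12, rpl21, rps8b and rpl17. The first and the fourth are described with their paralogs. For rpl12, which sits at the base of the stalk, the pools held 1040, 974 and 888 CPM in mutants and 825, 896 and 909 CPM in wild-type siblings, with a log2 fold change of 0.14 (SE 0.10, adjusted p = 0.9999). For rpl21, a large subunit protein, they held 674, 747 and 545 CPM in mutants and 581, 595 and 584 CPM in wild-type siblings, with 0.16 (SE 0.12, adjusted p = 0.9999). In both, the mutant pool of clutch 4 was below its wild-type sibling pool. The log2 fold change of rpl17, near the exit of the peptide tunnel, was 0.13 (SE 0.11).

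The 5 below 0 with the smallest p were rpl13a, rpl29, rps7, rps2 and rpl9. The lowest estimate of all 81 was that of rpl13a, which in human cells also serves in translational silencing, with 1140, 1034 and 992 CPM in mutants against 1088, 1016 and 1273 CPM in wild-type siblings and a log2 fold change of -0.09 (SE 0.11, adjusted p = 0.9999). It was higher in the mutant pools of clutches 2 and 3, and the wild-type pool of clutch 4 was the highest of the 6. Without that pool the log2 fold change was 0.0020. The other 4 had log2 fold changes between -0.04 and -0.02.

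**Figure D3:**
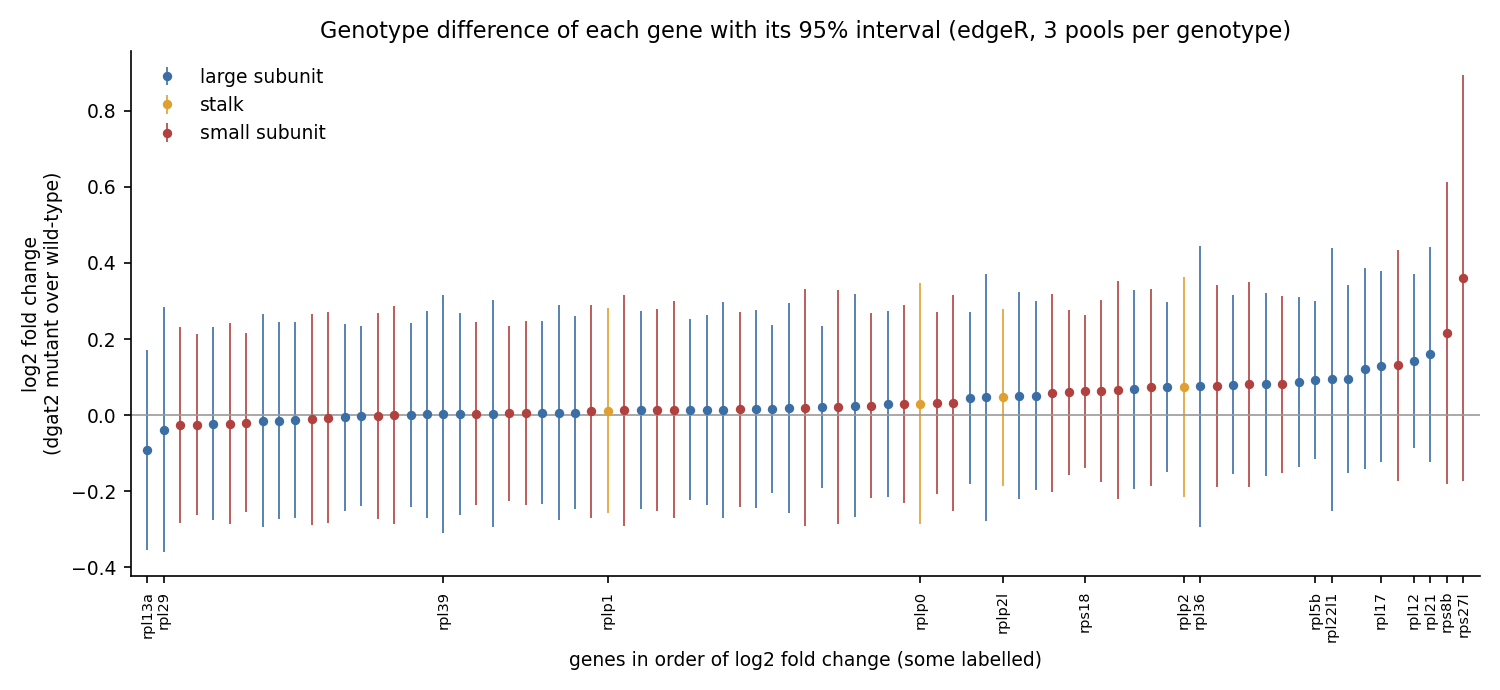
Log2 fold change (mutant over wild-type) of each of the 81 genes with its 95% interval from edgeR without the clutch block, n = 3 pools per genotype. Genes are sorted by size and coloured by part of the ribosome. Every interval includes 0, and the intervals of all genes except rps27l and rps8b lie within 0.5 of 0.

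Behind these small averages the clutches differed. Within clutch 2, 81 of 81 genes were higher in the mutant pool than in its wild-type sibling pool, where 50.4% of all genes were, and the median log2 difference was 0.22. Within clutch 3, 63 of 81 were higher (49.7% of all genes) with a median of 0.06. Within clutch 4, 7 of 81 were higher (49% of all genes) with a median of -0.18. All 3 were counted on TMM-normalized CPM, and the medians of all genes were between -0.01 and 0.00. In all, 74 of 81 were higher in the mutant of clutch 2 and lower in the mutant of clutch 4.

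There was 1 pool per genotype in each clutch, so whether the genotype difference depends on the clutch could not be tested, and the 81 genes of a pool share 1 library and are no replicates. The pattern was shared by the parts of the ribosome. The medians within clutches 2, 3 and 4 were 0.20, 0.06 and -0.15 over the large subunit, 0.23, 0.06 and -0.17 over the stalk, and 0.22, 0.04 and -0.19 over the small subunit. The mutant pool of clutch 2 held the highest CPM of 59 of 81 genes, and the wild-type pool of clutch 4 that of 15. The mutant pool of clutch 4 held the lowest CPM of 37, while no gene was lowest in the mutant pool of clutch 2.

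The 7 genes that were higher in the mutant of clutch 4 were rpl13, rpl5b, rpl8, rps3, rps4x, rps8b and rps27l. All of them except rps3 were higher in the mutant pool of every clutch, which makes 6 of 81, beside 14.7% of all genes tested. For rpl13 the differences were 0.08, 0.07 and 0.06 in clutches 2, 3 and 4, and for rpl8, a protein near the peptidyl transferase centre, 0.14, 0.06 and 0.04. The widest swing was that of rpl36, a large subunit protein, with 0.54, 0.14 and -0.43. Its pools held 787, 691 and 577 CPM in mutants of clutches 2, 3 and 4 and 542, 629 and 780 CPM in wild-type siblings, so that the highest mutant pool was that of clutch 2 and the highest wild-type pool that of clutch 4.

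The within-clutch medians changed with the scaling. Dividing by total counts alone gave 0.14, 0.06 and -0.07 in clutches 2, 3 and 4, while log2(TPM + 1) gave 0.04, -0.03 and 0.03, which flips the direction in clutches 3 and 4. By log2(TPM + 1), 49, 30 and 45 of 81 were higher in the mutant, where 6461, 8313 and 16143 of all 22762 genes tested were. The median of all genes also moved with these scalings, to -0.12, -0.06 and 0.13 on log2(TPM + 1) and to 0.10 in clutch 4 by total counts. Relative to the median of all genes, the members stood at 0.21, 0.06 and -0.17 under TMM and under total counts. These values must be equal, since a factor per library cancels in this difference. The members stood at 0.16, 0.03 and -0.11 on log2(TPM + 1). On that last scale 76, 55 and 20 of 81 genes were above the median of all genes in clutches 2, 3 and 4.

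Other contents of the libraries moved between the same pools. Counts from mitochondrially encoded genes took 5.67%, 6.34% and 6.00% in mutants of clutches 2, 3 and 4 and 4.83%, 6.09% and 6.73% in wild-type siblings, so that they too were higher in the mutants of clutches 2 and 3 and lower in the mutant of clutch 4. The summed CPM of the muscle markers differed by 0.08, 0.00 and -0.24 on the log2 scale (mutant minus wild-type), with 11, 6 and 2 of 18 genes higher in mutants. That of the YSL and hepatocyte markers differed by -0.28, -0.25 and 0.37, with 6, 5 and 13 of 13 genes higher. The muscle sum thus had the same order of clutches as the ribosomal protein genes. The YSL and hepatocyte sum was higher in the mutant only in clutch 4, where the wild-type pool, at 9675 CPM, was the lowest of all pools. At 12497 CPM the mutant pool of clutch 4 was itself the lowest of the mutant pools.

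The remaining marker lists were summed in the same way. Pancreatic acinar markers differed by 0.53, 0.20 and 1.62 and spanned 294 to 1749 CPM in mutants and 254 to 1209 CPM in wild-type siblings, and 13, 11 and 13 of 13 genes were higher in mutants. Epidermal markers differed by -0.25, -0.26 and -0.35, with 12820 to 15453 CPM in mutants and 16221 to 18535 CPM in wild-type siblings, and neuronal markers by -0.08, -0.00 and -0.46, with 1098 to 1191 CPM in mutants and 1161 to 1593 CPM in wild-type siblings. Erythroid markers differed by -0.01, 0.45 and -0.17, with 1937 to 3529 CPM in mutants and 2177 to 2586 CPM in wild-type siblings, and genes of proliferating cells by -0.10, -0.12 and -0.11, with 936 to 1032 CPM in mutants and 1004 to 1118 CPM in wild-type siblings. None of the markers found in these 7 lists was at 0 in any library. Of these lists, 1, 1 and 1 of 9 epidermal genes, 1, 5 and 0 of 8 neuronal genes, 5, 8 and 3 of 9 erythroid genes and 4, 5 and 5 of 14 genes of proliferating cells were higher in mutants of clutches 2, 3 and 4. The part of tissue makeup or of mitochondrial counts in the clutch pattern was not tested.

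**Figure D4:**
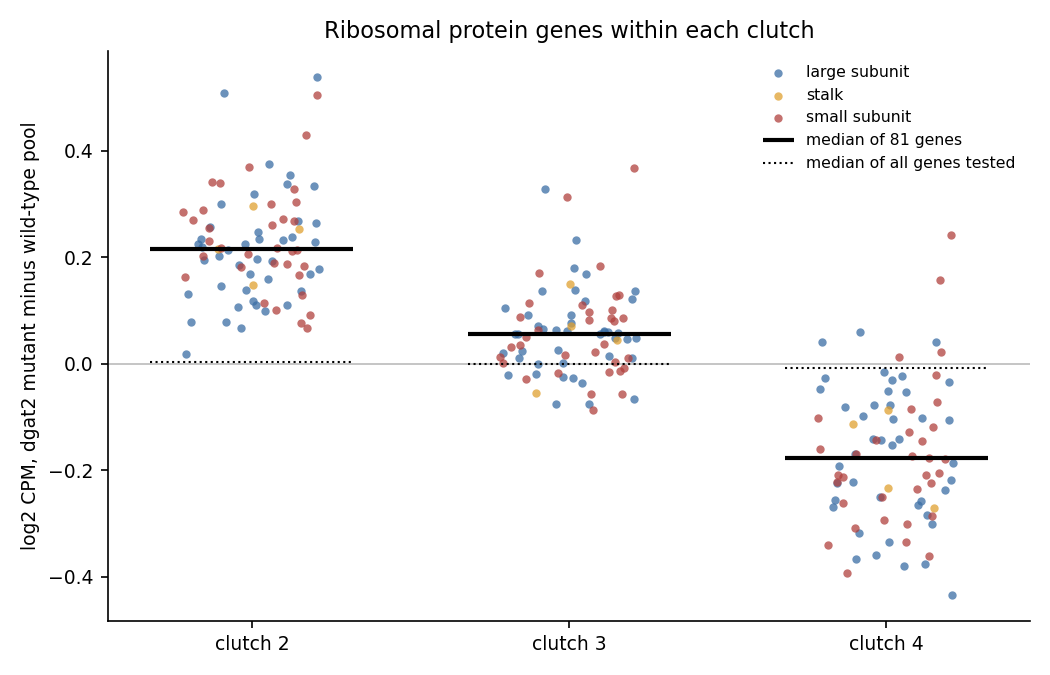
Difference in log2 CPM between the mutant and the wild-type pool of each clutch, with 1 point per gene coloured by part of the ribosome, the median of the 81 genes as a thick line and the median of all genes tested as a dotted line. All 81 points lie above 0 in clutch 2 (median 0.22) and 74 of 81 lie below 0 in clutch 4 (median -0.18).

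Spread between pools of the same genotype was smaller for these genes than for most. The SD of log2 CPM between pools, pooled over both genotypes, had a median of 0.136 among the 81, beside 0.229 over all genes tested, and 79 of 81 were below that median of all genes. Counting error falls with the level and these genes are among the highest, and how much of the low spread goes with the level was not tested. The 5 with the largest spread were rps27l (0.389), rpl36 (0.245), rpl22l1 (0.226), rpl38 (0.205), which in mouse affects translation of Hox mRNAs, and rpl29 (0.204).

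By log2 CPM the smallest spread of all 81 was that of rps18, at 0.048, followed by rpl5b (0.063) and rpl7l1 (0.076). Of all genes tested, 1.25% (284 genes) had a smaller SD than rps18. It had 647, 681 and 623 CPM in mutants of clutches 2, 3 and 4 and 614, 623 and 632 CPM in wild-type siblings, and its highest and lowest libraries were 0.15 apart on the log2 scale. The means were 651 ± 29.3 CPM in mutants, against 623 ± 9.15 CPM in wild-type siblings (SD, n = 3 each), with a log2 fold change of 0.06 (SE 0.09, 95% interval -0.14 to 0.26, edgeR adjusted p = 0.9999). Its differences within clutches 2, 3 and 4 were 0.08, 0.13 and -0.02, so it took little part in the swing between clutches 2 and 4. By TPM it had 1343, 1329 and 1472 in mutants, against 1507, 1275 and 1289 in wild-type siblings, and there the wild-type pool of clutch 2 was highest. Its first place in steadiness holds for CPM and not for TPM. Its TPM means were 1381 ± 78.6 in mutants and 1357 ± 130 in wild-type siblings. Those of rpl35 were 2438 ± 22.7 and 2439 ± 58.2 (SD, n = 3 each).

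**Figure D5:**
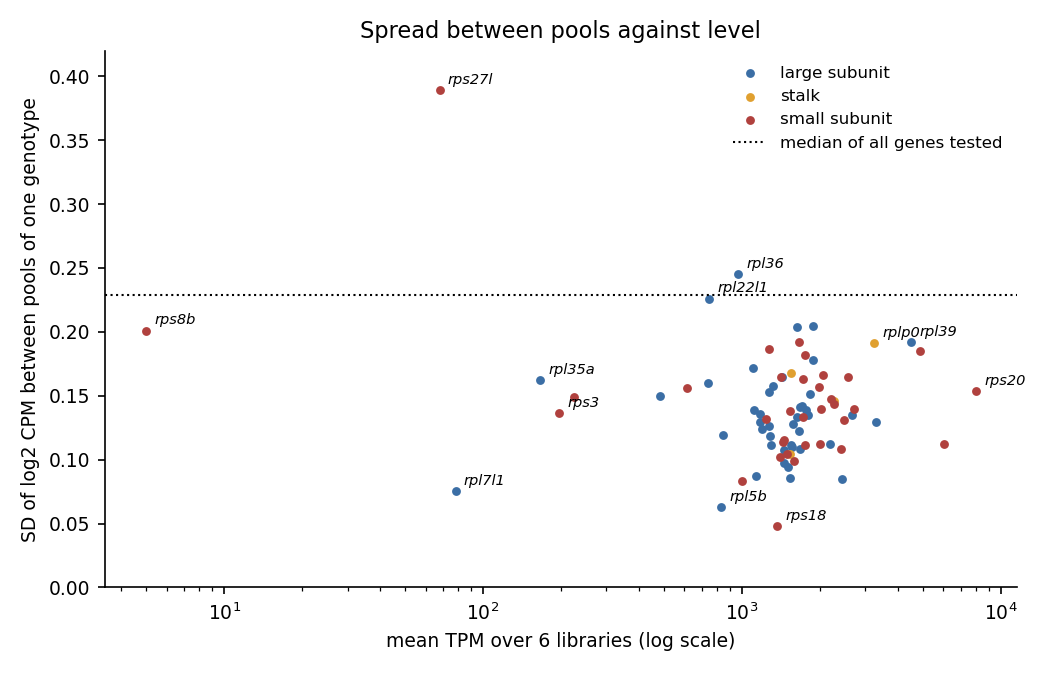
SD of log2 CPM between pools of one genotype (pooled over both genotypes) against the mean TPM over 6 libraries on a log axis, 1 point per gene, with the median SD of all genes tested as a dotted line. The point of rps18 is the lowest at 0.048, and those of rps27l (0.389) and rpl36 (0.245) are the only ones above the dotted line at 0.229.

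The stalk genes followed the other members. rplp0, which anchors the stalk to the large subunit, had 2732, 2046 and 1972 CPM in mutants of clutches 2, 3 and 4 and 2352, 2127 and 2133 CPM in wild-type siblings, with a log2 fold change of 0.03 (SE 0.14). Its mutant pool of clutch 2 stood apart and its spread of 0.191 was the largest of the 4. The acidic proteins that pair along the stalk gave 0.01 (SE 0.12) for rplp1, 0.07 (SE 0.13) for rplp2 and 0.05 (SE 0.10) for rplp2l. The copies rplp2 and rplp2l were at 1544 and 1529 TPM, and rplp2 was the higher of them in 3 of 6 libraries. They could thus not be ordered by TPM. By CPM, which ignores length, rplp2l was the higher in all 6 libraries, with means of 405 CPM against 296 CPM for rplp2.

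Other members also share a base name, and here 1 copy was above the other in all 6 libraries by TPM. Counts of near-identical copies may be split between them by the quantification, so these levels are uncertain. The closest pairs were rps27.1 and rps27.2 (1656 and 1412 TPM), rpl5a and rpl5b (1283 and 828 TPM), which in mammals bind the 5S ribosomal RNA, and rpl22 and rpl22l1 (1176 and 749 TPM). By TPM rps26 (1002 TPM) was 4.45-fold above rps26l (225 TPM), rpl7 (2190 TPM) 27.9-fold above rpl7l1, and rps8a (2706 TPM) 541-fold above rps8b. These ratios include the length term, which was 0.425 for rps26 and 2.73 for rps26l. By CPM, which ignores length, rps26l was above rps26 in all 6 libraries, with means of 318 and 221 CPM. Names that differ by a final letter a, such as rpl13 and rpl13a or rps3 and rps3a, belong to different proteins and were not read as copies.

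Paralogs did not always move together within clutches. For rpl5a the differences in clutches 2, 3 and 4 were 0.17, 0.05 and -0.24, and for rpl5b they were 0.13, 0.10 and 0.04. For rpl22l1 they were 0.51, 0.14 and -0.32, with 324, 317 and 273 CPM in mutants against 228, 288 and 340 CPM in wild-type siblings, while rpl22 had 0.24, 0.01 and -0.28. The log2 fold changes over all pools were -0.01 for rpl5a, 0.09 for rpl5b, 0.09 for rpl22l1 and -0.01 for rpl22, and differences between copies were not tested.

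The member farthest from 0 was rps27l, a less abundant relative of rps27.1 and rps27.2 in the small subunit. Its pools held 50.6, 36.0 and 58.5 CPM in mutants of clutches 2, 3 and 4 and 35.7, 27.9 and 49.5 CPM in wild-type siblings. The groups overlapped, since the wild-type pool of clutch 4 was above the mutant pool of clutch 3, but in each clutch the mutant pool was the higher, by 0.51, 0.37 and 0.24 on the log2 scale. The log2 fold change was 0.36 (SE 0.23, 95% interval -0.17 to 0.89) with an edgeR adjusted p of 0.9999 and an unadjusted p of 0.160. With the clutch as a replicate block edgeR gave 0.37 with an unadjusted p of 0.00585 and an adjusted p of 0.259, which does not pass. Over all alternatives its adjusted p ranged from 0.163 to 0.999999. The related rps27.1 and rps27.2 had log2 fold changes of 0.02 and 0.01.

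The lowest member by level, rps8b, was also higher in the mutant of every clutch. Its pools held 6.115, 5.76 and 7.06 CPM in mutants and 4.54, 5.43 and 6.34 CPM in wild-type siblings, which overlap, and its log2 fold change was 0.22 (SE 0.17, edgeR adjusted p = 0.9999, 0.808 with the block). The abundant copy rps8a had a log2 fold change of -0.02.

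Genes related to the ribosome were described by list. For comparison, 10971 of all 22762 genes tested had a log2 fold change above 0. Of 30 translation factors and other mRNAs that in mammals start with an oligopyrimidine tract, 24 were above 0 with a median of 0.04. Within clutches 2, 3 and 4, 22, 18 and 14 of 30 were higher in mutants with medians of 0.11, 0.02 and -0.00. Of 45 ribosome biogenesis genes, 31 were above 0 with a median of 0.04, and 40, 11 and 20 of 45 were higher in mutants of clutches 2, 3 and 4 with medians of 0.13, -0.07 and -0.02.

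Of 75 mitochondrial ribosomal protein genes, which serve the separate ribosome inside mitochondria, 36 were above 0 with a median of -0.00. Within clutches 2, 3 and 4, 72, 29 and 16 of 75 were higher in mutants, with medians of 0.18, -0.03 and -0.10. Of these mitochondrial genes, the biogenesis genes and the translation genes, 0 passed an adjusted or an unadjusted p of 0.05 in edgeR, with or without the clutch as a block. Of all genes tested, 0.0132% passed the adjusted and 5.2% the unadjusted threshold without the block. With the block these shares were 0.338% and 8.19%.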

How the data were processed

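Poly(A)-selected RNA from 6 pools was sequenced. Per the submitters' processing notes and the paper's methods, the values rest on Salmon 1.10.1 estimates from STAR 2.7.9a alignments (GRCz11), made after adapters and ribosomal RNA reads had been taken out. The authors deposited estimated counts per gene, not scaled for depth, and TPM, in which the authors corrected for length and set each library's sum to 1000000. Estimated counts were rounded to whole numbers for count tests. Depth was 45958694 to 59166585 counts per library.

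Samples were grouped by the genotype in their labels. Genotypes were compared with the quasi-likelihood test of edgeR 4.0.16 (R 4.3.3, TMM factors, filterByExpr, Benjamini-Hochberg adjustment over 22762 genes, threshold 0.05). The test was tried on simulated data, in which genes were drawn independently and without a clutch effect. The changes simulated were larger than any estimate among the members. That trial therefore does not show whether differences as small as theirs would be found. CPM are TMM-normalized. Each SE is the size of the log2 fold change divided by the root of the F statistic, and intervals from the t distribution. Clutch numbers in the labels pair the pools. Deviations from genotype means correlated by 0.338, 0.309 and 0.179 across genes within clutches 2, 3 and 4 and by -0.300 to 0.035 between clutches. Across the members alone they correlated by 0.418, 0.742 and 0.252 within clutches and by -0.517 to 0.065 between clutches. A shift shared by all genes of a pool does not enter a correlation across genes. These values therefore do not describe the swing of the members between clutches. Deviations from a mean of 3 pools also sum to 0, so the values within and between clutches are not independent. The block was an alternative, since the paper names no covariate. With 3 pools each, an exact permutation test cannot give a p under 0.1, so none is reported. No p is given for shares or for medians over members. Without the block, a p-value sets the genotype difference against the variation between pools of the same genotype. Sibling pools of a clutch are then treated as independent. With the block, the difference is set against the variation left after the clutch term. In both fits edgeR moderates that variation across genes, so an SE need not follow the SD of that gene alone.

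Alternatives were DESeq2 1.42.0 with and without the block or length offsets taken from the ratio of count to TPM, RLE, upper-quartile and total-count scaling, TMM without the members, no filter or at least 10 counts in every library, limma 3.58.1 on log2 TPM with a pseudocount of 1 or 0.1 (genes reaching 1 TPM in 3 or more libraries), other denominators of the share, and each library left out in turn. Other scalings of the within-clutch medians were an addition made once the data had been seen.

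The members and lists were chosen with earlier results of these data known. Named members are rps18, the rplp genes, the 5 higher and 5 lower with the smallest p, any with an adjusted p under 0.05, the 5 highest and 5 lowest by TPM, the 5 with the largest SD and those sharing a base name. Other members are named as exceptions to a count or by their place in an order, after their values were seen. Outside the members, listed genes with an adjusted p under 0.05 and dgat2 could be named. Some of the listed genes are not reported here. Promoter and protein sequences and base positions were not used here, and chromosome names came from the RefSeq table of GRCz12tu. Summaries used Python 3.11.15 and pandas 2.3.3.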

Additional observations from a re-analysis of the deposited data

Results flagged for a closer look

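The 81 ribosomal protein genes stood out because, on TMM-normalized CPM, the mutant and wild-type pools moved in opposite directions in different clutches. Their median log2 difference (mutant minus wild-type) was 0.22 in clutch 2 and -0.18 in clutch 4. In clutch 2, 81 of 81 were higher in the mutant, beside 50.4% of all genes. In clutch 4, 7 of 81 were higher and 74 of 81 lower, where 49% of all genes were higher. On log2(TPM + 1) the medians were 0.04 and 0.03, with 49 and 45 of 81 higher, so the directions were not opposite there. Relative to the median of all genes they stood at 0.16 and -0.11 on that scale. The difference between the clutches was not tested, since each clutch gave 1 pool per genotype.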

How the results depend on the processing

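Over 18 alternatives to the genotype comparison, the count of ribosomal protein genes past an adjusted p of 0.05 stayed at 0, and their median log2 fold change lay between -0.06 (without the mutant pool of clutch 2) and 0.08 (without the mutant pool of clutch 4), above 0 in 14 and below in 4. With the clutch as a replicate block the median was 0.02, and the block changed no call at an adjusted p of 0.05. Over all genes, edgeR called 3, edgeR with the replicate block 77, DESeq2 160 and DESeq2 with length offsets 168, and the cause was not tested. At an unadjusted p of 0.05, edgeR without the block passed no member, where 5.2% of all genes passed. With the block edgeR passed only rps27l among the members, where 8.19% of all genes passed. DESeq2 with the block also passed rps27l. So did edgeR without the mutant pool of clutch 3 (0.53) and without the wild-type pool of clutch 4 (0.60). The gene rpl21 passed without the mutant pool of clutch 4 (0.28), and rpl39 passed in DESeq2 with length offsets. For these other fits the share of all genes passing is not given, so their passes are not read as a difference of the members. The log2 ratio of mean shares, 0.039 with all pools, was -0.014 without the mutant pool of clutch 2 and -0.012 as a share of TPM, and stayed above 0 in the other 7 alternatives. The within-clutch medians on log2(TPM + 1) were 0.035 in clutch 2 and 0.027 in clutch 4, with the cause not tested beyond the shift of all genes.

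Of 342 values of 19 named genes, 309 kept their direction. The log2 fold change of rpl39 was -0.0085 with upper-quartile factors, -0.78 in DESeq2 with length offsets and -0.72 in limma at both pseudocounts, where the assigned length differs. That of rplp1 was -0.00083 with upper-quartile factors and -0.0078 in limma at both pseudocounts. Leaving out each pool in turn, the log2 fold change ranged from -0.16 to 0.0020 for rpl13a, -0.044 to 0.24 for rpl22l1, -0.17 to 0.095 for rpl29, -0.039 to 0.22 for rpl36, -0.060 to 0.17 for rpl38, -0.10 to 0.13 for rpl39, -0.11 to 0.038 for rpl9, -0.13 to 0.12 for rplp0, -0.087 to 0.081 for rplp1, -0.040 to 0.15 for rplp2, -0.029 to 0.11 for rplp2l, -0.10 to 0.049 for rps2 and -0.093 to 0.021 for rps7. The genes rpl12, rpl17, rpl21, rps18, rps8b and rps27l kept their sign throughout. Counting error was far below the spread between pools for the shares, so that 3 pools per genotype set the precision.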
